A study of Gadus morhua with 47 samples.

Results

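Liver weight relative to body weight divided the 8 Atlantic cod (Gadus morhua) of the study into 3 fish with large livers and 5 fish with small livers. From the weights given for each fish, the liver made up more than 10% of body weight in fish 2, 4 and 7 and less than 8% in fish 1, 3, 5, 6 and 8. Each fish had given several precision-cut liver slices, thin sections of tissue kept alive in culture, and each slice was 1 RNA library. The levels of a transcript were averaged over the slices of a fish, so the comparison was of 3 fish with 5, and 43 of the 47 slices entered it. The 15 slices of the large livers and 28 of the small livers were used, out of 17 and 30. The other 4 slices were set aside because their libraries stood apart from those of the same fish. They were the DMSO slice of fish 2, the slice of fish 6 with BaP 10 nM, the slice of fish 7 with BaP 1 µM and the slice of fish 8 with the 1 µM mixture. Their TMM scaling factors were as low as 0.572, against 0.832 or more in the slices used, and the results with all 47 slices are given beside the main ones.

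The cod is a lean fish that stores most of its fat in the liver, inside hepatocytes, rather than in muscle. Liver weight as a share of body weight, the hepatosomatic index, is therefore commonly read as a measure of energy reserve in this species, and it moves with feeding, season and reproductive state. The liver is also where the main compounds of the study act: benzo[a]pyrene (BaP), a polycyclic aromatic hydrocarbon, binds the aryl hydrocarbon receptor, and ethynylestradiol (EE2), a synthetic estrogen, binds the estrogen receptors that drive egg yolk protein synthesis in fish liver.

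The slices had been treated with the vehicle dimethyl sulfoxide (DMSO), with BaP, with EE2 or with both compounds (Mix), each at 10 nM or 1 µM. The slices used came, for the large and the small livers in turn, to 2 and 5 with DMSO and, with BaP, to 2 and 4 at 10 nM and again at 1 µM. There were 3 and 4 with EE2 at 10 nM, 1 and 5 with EE2 at 1 µM, 3 and 3 with the mixture at 10 nM, and 2 and 3 with the mixture at 1 µM. The labels give each fish's sex and weights. Age, maturity, feeding and origin were not given in the sources used here.

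The large livers made up 11.9% ± 0.524 of body weight (SD, n = 3) and the small livers 5.60% ± 1.41 (SD, n = 5). Fish 4 had the highest share, with a liver of 70 g in a body of 565 g (12.4%). Fish 2 followed with 41 g of 346 g (11.8%) and fish 7 with 93 g of 820 g (11.3%). Among the small livers, fish 8 was nearest to the boundary, with 47 g of 635 g (7.40%). Fish 5 had 26 g of 394 g (6.60%) and fish 1 had 22 g of 399 g (5.51%). Fish 3 had 19 g of 425 g (4.47%) and fish 6 had 16 g of 397 g (4.03%). The large livers were all from males, and the small livers were from 2 males (fish 1 and 5) and 3 females (fish 3, 6 and 8). Body weight overlapped between the classes, at 577 g ± 237 (SD, n = 3) and 450 g ± 104 (SD, n = 5), and the heaviest fish of each class were fish 7 and fish 8.

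Depth and make-up of the libraries overlapped between the 2 liver classes, and 0 of 7 library measures passed a test. Mapped read segments came to 49.2 M ± 5.17 (M, mega; SD, n = 3 fish) in large livers and 51.1 M ± 4.56 (SD, n = 5) in small livers, and the libraries ranged from 36.6 M to 67.0 M. The exact two-sided permutation test over the 56 ways to pick 3 of 8 fish, whose smallest possible p is 0.0357, gave p = 0.571 for this measure. The other 6 library measures gave exact p-values from 0.25 to 0.679, and each adjusted p over the 7 measures was 0.679. After this adjustment a single measure at the smallest possible p would not pass either. The count of 0 therefore does not show that the libraries were alike. The share of segments placed on no transcript was 47.4% ± 2.93 against 45.3% ± 2.13, and the number of detected transcripts was 18584 ± 427 against 18815 ± 210. The labelled tissue could not be checked against liver markers, because the deposited identifiers carry no gene names.

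**Figure D1:**
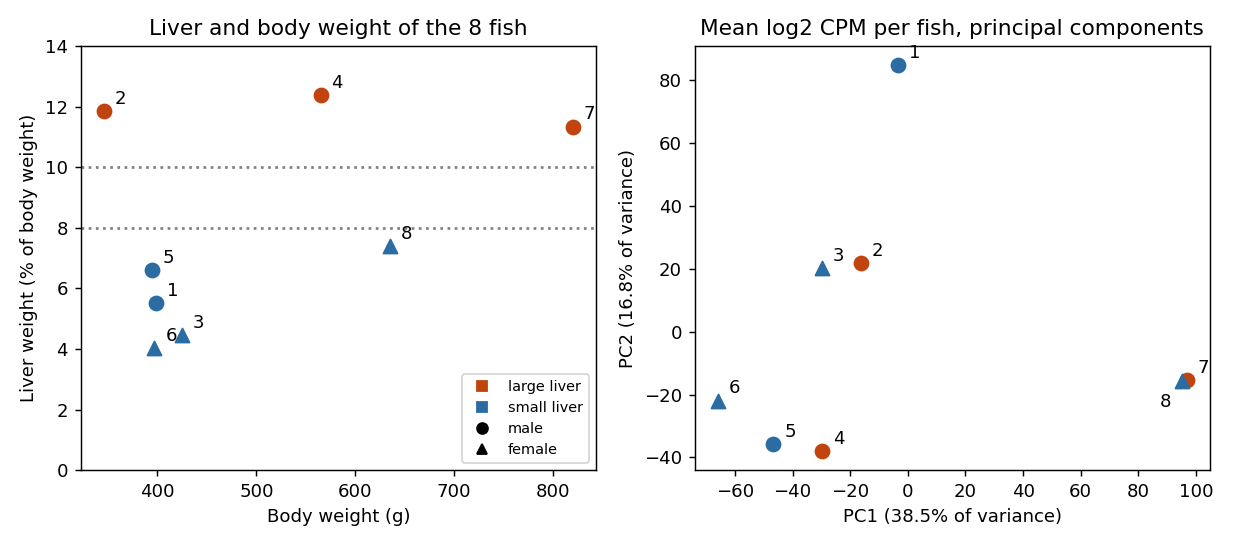
Left, liver weight as a percentage of body weight against body weight in g for the 8 numbered fish, with dotted lines at 10% and 8%. Right, the first 2 principal components of the mean log2 CPM per fish (38.5% and 16.8% of the variance). Colour gives the liver class and the symbol the sex. The large livers (orange) lie at 11.3% to 12.4% on the left and are spread among the small livers on the right, where fish 7 and fish 8 lie together.

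The fish did not group by liver class in the main component of their transcriptomes. The first principal component of the mean levels per fish carried 38.5% of the variance and set fish 7 (a large liver, score 96.8) and fish 8 (a small liver, score 95) apart from the other 6 fish, which scored between -65.9 and -3.31. Fish 7 and fish 8 were also the most alike pair, with a correlation of 0.975 across the 17930 transcripts. Fish 2, a large liver, was closest to fish 1, a small one (r = 0.967), and fish 4 was closest to fish 2 (r = 0.961). Fish 3 was closest to fish 2 (r = 0.955), and fish 5 and fish 6, both small, were closest to each other (r = 0.966). These correlations are across transcripts within pairs of fish and describe likeness only.

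The median correlation was 0.944 over the 3 pairs of large livers, 0.939 over the 10 pairs of small livers and 0.951 over the 15 pairs of a large and a small liver. Pairs from the same class had no higher median than pairs across classes. Liver class accounted for 10.3% of the variation between fish, where 1 of the 7 degrees of freedom amounts to 14.3%. Sex accounted for 10.2%, and the division of fish 7 and 8 from the rest, which was chosen from these data, for 36.3%. Over the single slices, 72.6% of the variation lay between fish and 8.07% between liver classes. The median standard deviation over the slices of a fish was between 0.178 and 0.251 log2 units and overlapped between the classes, at 0.237, 0.217 and 0.179 in fish 2, 4 and 7 and at 0.251, 0.213, 0.181, 0.184 and 0.178 in fish 1, 3, 5, 6 and 8.

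Of 17930 transcripts that passed the filter on low counts, 0 (0%) differed between large and small livers at an adjusted p under 0.05 (limma on the mean log2 CPM per fish, where CPM is the count scaled to a common library total, with Benjamini-Hochberg adjustment). At an unadjusted p under 0.05, 157 (0.876%) were higher and 157 (0.876%) lower in large livers, 314 in all, where 5% of the transcripts tested would be 896.5. The smallest adjusted p was 0.999. All 3 large livers lay above all 5 small ones at 112 transcripts (0.625%) and below them at 119 (0.664%). The slices are whole tissue, so fewer cells of a type and less RNA per cell cannot be told apart in any difference given here.

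The size of the differences was small for most transcripts. The median log2 difference (large minus small) was -0.01, and the median absolute difference was 0.23. Large livers were higher by more than 1 log2 unit at 297 transcripts and lower by more than 1 at 477, and by more than 2 at 30 and 33. The typical 95% interval of a difference reached 0.85 log2 units to either side, so a transcript of median spread would have to differ by more than that to stand clear of 0 even without adjustment. The spread between fish was similar in the classes, with a median standard deviation of 0.46 among the 3 large and 0.50 among the 5 small livers.

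**Figure D2:**
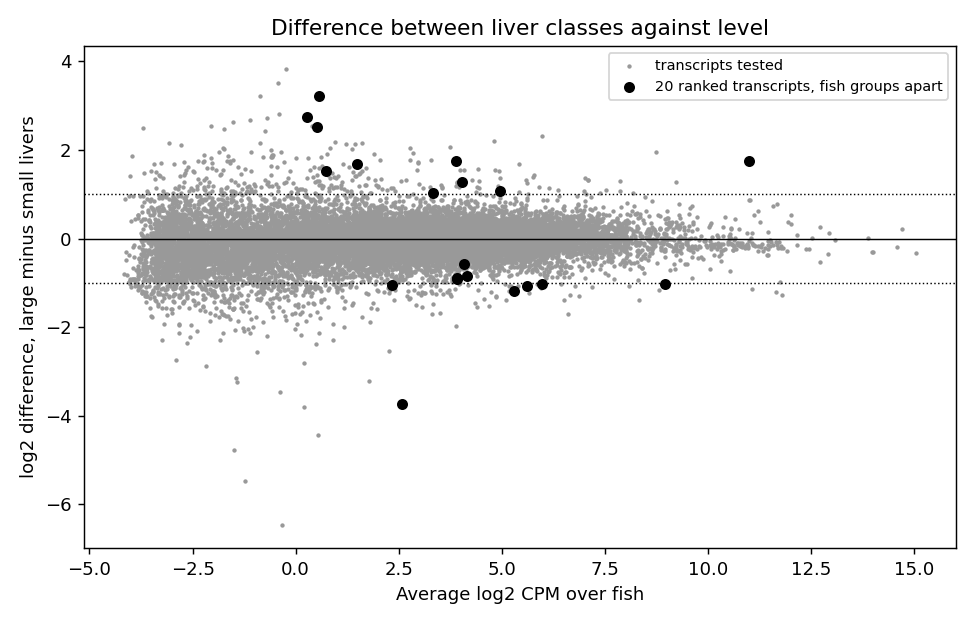
Log2 difference between large and small livers (vertical axis) against the average log2 CPM over the 8 fish (horizontal axis), with 1 grey point for each of the 17930 transcripts and dotted lines at differences of 1 and -1. Black points are 20 transcripts, the 10 in each direction with the smallest unadjusted limma p. They were taken among those with an average log2 CPM of 0 or more whose fish groups did not overlap. The cloud is widest at low levels and most points lie between the dotted lines.

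The differences were widest among rare transcripts. Their standard deviation was 0.65 over the 4184 transcripts with an average log2 CPM under 0 and 0.31 over the 4080 with an average from 4 to 6. Among the 100 most abundant transcripts the median difference was -0.14, and 1 was higher and 3 were lower by more than 1 log2 unit. Of these 100, 1 had all large livers above all small ones, 0 had them below, and 2 had an unadjusted limma p under 0.05. Over all transcripts the shares were 0.625%, 0.664% and 1.75%, so the counts among the 100 were near those shares.

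The one abundant transcript whose groups did not overlap was 984 bases long and ranked 62nd in abundance. Its mean log2 CPM was 11.7, 13.3 and 11.3 in fish 2, 4 and 7, and 10.7, 10.2, 10.4, 10.7 and 9.77 in fish 1, 3, 5, 6 and 8. The lowest large liver, fish 7, stood 0.52 above the highest small one, and fish 4 stood apart from both other large livers. The difference was 1.75 ± 0.45 log2 units (SE), with an adjusted p of 0.999.

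The median difference went from positive to negative with coding length. The median difference was 0.07 in the first length quartile (69 to 687 bases), 0.03 in the next (690 to 1137 bases), -0.02 in the third quartile (1140 to 1836 bases) and -0.11 in the last (1839 to 77343 bases). Of the transcripts with an unadjusted p under 0.05, 63 were higher and 20 lower in the first quartile, and 22 were higher and 71 lower in the last. The slope of log2 CPM on log2 length per library, which can move with RNA integrity, was 0.337 ± 0.0798 in large livers (SD, n = 3) and 0.396 ± 0.0282 in small ones (SD, n = 5). It was lowest in fish 4, at 0.268, and highest in fish 2, at 0.424, so the large livers held both ends of the range. The exact two-sided permutation test gave p = 0.25, and the difference in slope of -0.059 became -0.0245 without fish 4, -0.103 without fish 2 and -0.107 with all 47 slices. With the slope removed from each library, the quartile medians were -0.02, 0.01, -0.00444 and -0.04, with 42 higher and 33 lower at an unadjusted p under 0.05 in the first and 32 and 35 in the last. Removing the slope takes out a linear trend of the difference with length by construction, so these values do not test the trend. The part of RNA quality in the trend was not tested.

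Because 0 transcripts passed, those with the smallest unadjusted p among the transcripts whose fish groups did not overlap and whose average log2 CPM was 0 or more (83 higher and 77 lower in large livers) are described instead. The first 2 in each direction are given by identifier, and each missed the threshold. The identifiers are Ensembl cod transcripts that the files pair with no gene name, so no function is given for them.

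Transcript ENSGMOT00000002447.1, coding length 5808 bases, showed mean log2 CPM values of 2.41, 2.26 and 3.07 in the large livers of fish 2, 4 and 7. In the small livers the values were 0.25, -1.58, 0.48, -1.36 and -0.95 in fish 1, 3, 5, 6 and 8. The fish groups were far apart, and within the small livers both males lay above the 3 females. Over single slices the large livers ran from 1.53 through a median of 2.33 to 3.55 and the small livers from -2.67 through -0.64 to 2.04, with 1 of the 28 small-liver slices inside the range of the large livers. That slice was the DMSO slice of fish 1, with 156 counts against 14 to 78 in the other slices of that fish. The difference was 3.22 ± 0.54 log2 units (SE, 95% interval 2.01 to 4.43), a 9.29-fold higher level in large livers, with a limma adjusted p of 0.999. Among the small livers the males averaged 0.36 and the females -1.30, and among males alone the difference between the liver classes was 2.22.

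Transcript ENSGMOT00000003909.1, of 891 bases, had mean log2 CPM values of 0.92, 2.94 and 2.38 in fish 2, 4 and 7. Its values were -0.19, -0.62, -0.33, -0.32 and -0.70 in fish 1, 3, 5, 6 and 8, a narrow band in which males and females lay close together. Slices of large livers ran from 0.44 through a median of 2.46 to 3.09, and slices of small livers from -1.44 through -0.36 to 0.49. Fish 2 was the lowest of the large livers, with 68 to 233 counts per slice against 226 to 351 in fish 4 and 255 to 370 in fish 7. The difference was 2.51 ± 0.45 (SE, 95% interval 1.495 to 3.53) with a limma adjusted p of 0.999, and among males alone it was 2.34.

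Transcript ENSGMOT00000019620.1, of 192 bases, was lower in large livers, with mean log2 CPM values of 1.49, -1.15 and 0.41 in fish 2, 4 and 7. The small livers stood at 5.26, 3.97, 3.06, 2.91 and 4.70 in fish 1, 3, 5, 6 and 8. In counts, the slices of fish 4 held 11 to 27 and those of fish 7 held 70 to 90, whereas those of fish 1 held 1478 to 2171 and those of fish 8 held 1527 to 2234. Fish 2 came nearest to the small livers, with 98 to 285 counts, and 2 of its slices reached into their range of 1.97 to 5.82 log2 CPM. The difference was -3.73 ± 0.68 (SE, 95% interval -5.26 to -2.19), with a limma adjusted p of 0.999. Males alone gave -3.91, and the males and females among the small livers averaged 4.16 and 3.86.

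Transcript ENSGMOT00000019418.1, of 753 bases, was more abundant and differed less. Its mean log2 CPM was 4.12, 4.47 and 5.09 in fish 2, 4 and 7 and 5.60, 6.00, 6.01, 5.33 and 5.79 in fish 1, 3, 5, 6 and 8. Fish 7, the highest of the large livers, stood 0.25 under fish 6, the lowest of the small ones, and 7 of the 28 small-liver slices lay inside the range of the large-liver slices. The difference was -1.19 ± 0.26 (SE, 95% interval -1.78 to -0.59), with a limma adjusted p of 0.999, and -1.24 among males alone.

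**Figure D3:**
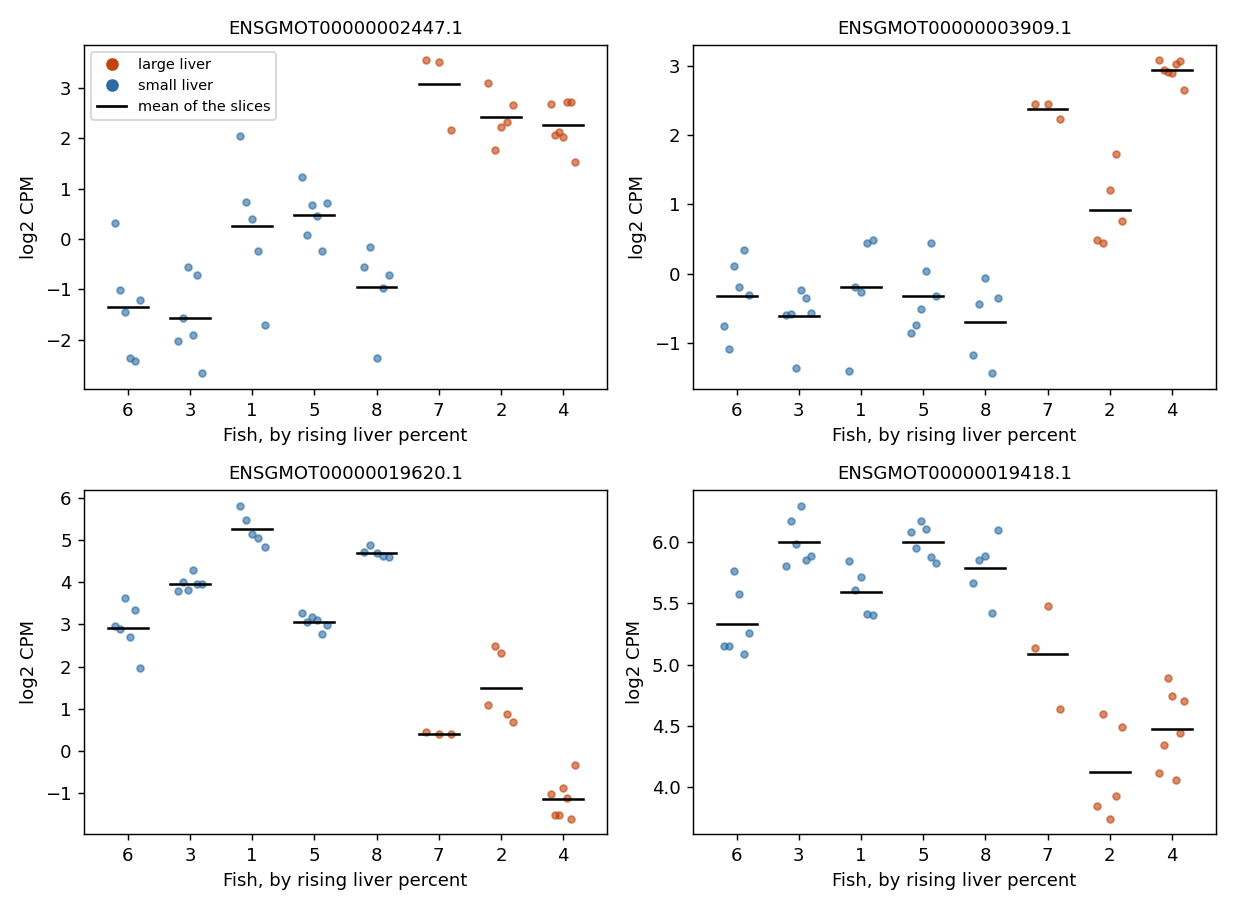
Log2 CPM of the 4 transcripts given by identifier, in every slice used (points) and as the mean over the slices of a fish (lines), with the fish ordered along the horizontal axis from the smallest to the largest liver as a percentage of body weight. The lines of fish 7, 2 and 4 (orange) lie above those of the 5 small livers (blue) in the upper panels and below them in the lower panels.

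The sizes of these 4 differences were also taken from other sets of slices of the same fish, whose direction the choice of transcripts largely fixed. In the DMSO slices alone, with fish 2, 4 and 7 against 5 fish, the log2 differences were 2.77, 3.01, -3.15 and -0.998. They are in the order in which the transcripts are described. This set held the DMSO slice of fish 2, which the main test set aside. In all 47 slices they were 3.02, 2.48, -3.69 and -1.10. With body weight as a term they were 3.17, 2.30, -3.68 and -1.39. Beside their values of up to 3.73 log2 units, the standard deviation over the slices of a fish was between 0.03 and 1.37.

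The 10 first-ranked transcripts in each direction covered log2 differences from 1.03 to 3.22 and from -3.73 to -0.57. Their average log2 CPM ran from 0.27 to 11 for those higher in large livers and from 2.35 to 8.95 for those lower. By the choice of transcripts whose fish groups did not overlap, the most extreme fish had to be a large liver. Fish 4 was the most extreme at 5 of the 10 higher and 5 of the 10 lower transcripts. Fish 7 was the most extreme at 3 and 3, and fish 2 at 2 and 2. The order of the large livers by their percentage was therefore not repeated at each transcript.

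Males alone, with fish 2, 4 and 7 against fish 1 and 5, were compared because the large livers were all male. The count past the adjusted threshold was again 0, with a smallest limma adjusted p of 0.0684, and 326 transcripts (1.82%) had an unadjusted p under 0.05. With 2 small livers the differences were wider, with 425 transcripts higher and 948 lower in large livers by more than 1 log2 unit. Of the 10 first-ranked transcripts in each direction, the 10 higher ones differed by 1.14 to 2.34 log2 units in males and the 10 lower ones by -3.91 to -0.50. Their direction in males was fixed by the choice of transcripts whose fish groups did not overlap. That choice used the same males, so the sizes describe these transcripts and do not test them. A term for sex over all 8 fish gave the same estimates for the 4 transcripts given by identifier, since no large liver was female. It also left 0 past the threshold, and liver class and sex cannot be told apart for the females.

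Count models called a few transcripts. With the counts of each fish summed, edgeR called 0, with 409 at an unadjusted p under 0.05, and DESeq2 called 11 (0.0613%), of which 7 were higher and 4 lower in large livers. Of these 11, 9 had fish groups that did not overlap, against 0.625% above and 0.664% below over all transcripts. Some of the 9 were apart only by values near 0 counts. At a transcript of 393 bases, described below, fish 8 lay at -4.57 and fish 2 at -4.58 log2 CPM. Both of these fish held 0 to 1 counts per slice. At another, fish 8 lay at -4.30 and fish 7 at -4.33. The first 3 transcripts given by identifier were among the 9, with DESeq2 adjusted p-values of 0.000212, 1.47e-05 and 0.000145. The calls and the choice of these 3 rest on the same fish, so neither is independent support for the other. A fit of single slices with fish as a random effect (a replicate block) called 5 (0.0279%), 1 higher and 4 lower, and shared 4 of them with DESeq2. In males DESeq2 called 42 (0.234%), 12 higher and 30 lower, and edgeR called 0, with 435 at an unadjusted p under 0.05.

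Fish 8, the small liver nearest to the boundary, changed the count of the main test when it was left out. Without it 4 of 17930 transcripts passed (0.0223%), 2 higher and 2 lower in large livers, whereas leaving out any other fish gave 0. At all 4 transcripts the slices of fish 1, 3, 5 and 6 stood on one side, and those of fish 2, 4, 7 and 8 on the other. The 4 were picked by leaving out fish 8, so their values describe the pattern and do not test it. Whether the 2 higher ones, or the 2 lower ones, share reads was not tested, so the 4 are uncertain as separate results.

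The transcript of 474 bases was present in fish 1, 3, 5 and 6, with 650 to 775, 540 to 745, 257 to 510 and 358 to 507 counts per slice. It was nearly absent from the large livers, with 0 to 3 counts in fish 2 and in fish 4 and 0 to 1 in fish 7. Fish 8 held 3 to 8 counts, on the side of the large livers. Without fish 8 the log2 difference was -7.77 (limma adjusted p = 0.000219), and with it -6.48 (limma adjusted p = 0.999). These fitted values rest on a prior count, since the large livers lay at or near 0.

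The transcript of 393 bases had the same arrangement, with 300 to 400, 187 to 342, 101 to 150 and 117 to 243 counts per slice in fish 1, 3, 5 and 6. Its counts were 0 to 1 in fish 2 and in fish 8 and 0 in every slice used of fish 4 and fish 7. It passed without fish 8 at a limma adjusted p of 0.00108. DESeq2, the fit with the replicate block and a fit without fish 7 and fish 8 also called it, and they called the transcript of 474 bases.

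The transcripts of 1167 and 1218 bases showed the reverse. The first held 241 to 445, 70 to 156 and 291 to 367 counts per slice in fish 2, 4 and 7, and 512 to 639 in fish 8. In fish 1, 3, 5 and 6 it held 3 to 17, 1 to 7, 2 to 8 and 1 to 12. The second held 150 to 292, 73 to 115, 250 to 321 and 498 to 689 in fish 2, 4, 7 and 8, against 1 to 10 over the slices of fish 3 and 5 and 2 to 11 over those of fish 1 and 6. Fish 8 was the highest fish at both, and without it the limma adjusted p-values were 0.00705 and 0.0107. The 4 transcripts followed neither sex nor liver class in all fish, since fish 8 is a female with a small liver and fish 1 and 5 are males with small livers.

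**Figure D4:**
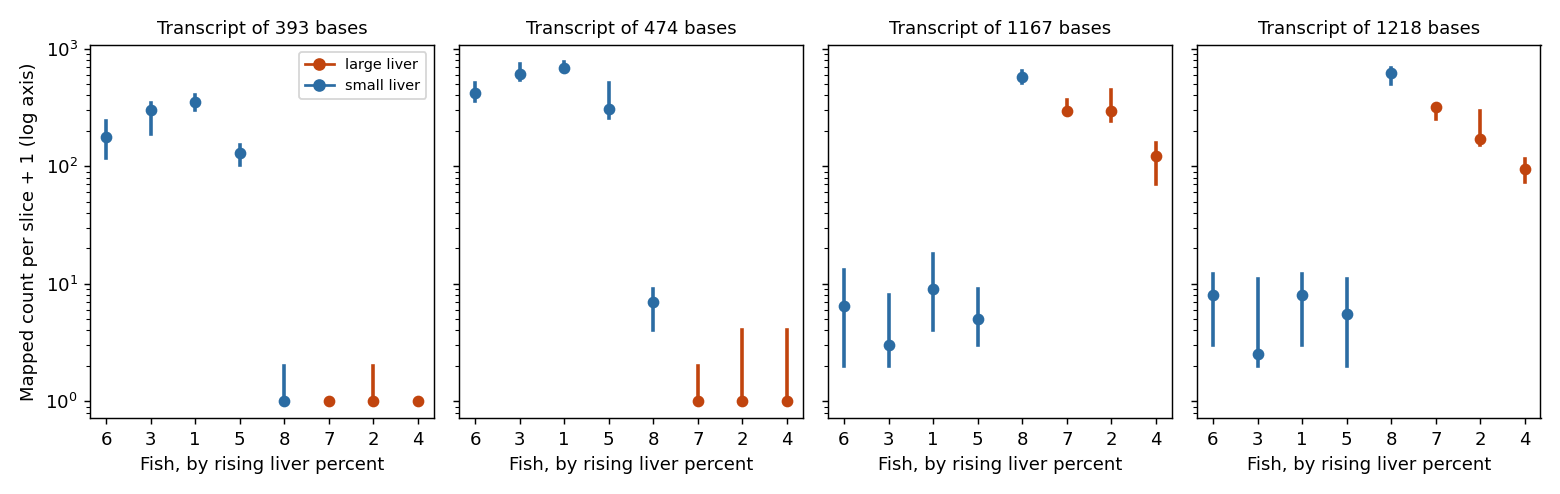
Mapped counts per slice, plus 1, on a log axis for the 4 transcripts that passed when fish 8 was left out, with fish ordered from the smallest to the largest liver as a percentage of body weight. Points are the median over the slices of a fish and bars run from the lowest to the highest slice. Fish 8 (blue) lies with the large livers (orange) in all 4 panels.

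No transcript was present in one liver class and absent from the other. A transcript was counted as on in a fish when every slice used had 1 CPM or more and as off when every slice had 3 counts or fewer. By this measure 112 transcripts were on in at least 1 fish and off in at least 1 other, and 10 of them were on or off in all 8 fish. There were 0 that were on in the 3 large and off in the 5 small livers and 0 with the reverse. There were also 0 that divided the males from the females in this way. At 3 transcripts a single fish was on and the other 7 were off, and those fish were fish 2, fish 5 and fish 7.

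The response to EE2 did not differ between liver classes beyond the spread between fish. For each fish the mean level in slices with EE2, alone or in the mixture, was set against that in its slices without EE2. The treatments in these sets differed between fish. In fish 2 every slice used without EE2 held BaP, since its DMSO slice was set aside. Its only slice with EE2 alone had 57.8% of segments on no transcript, against 46.9% to 48.4% in its other slices used. Fish 7 had 1 slice without EE2 and no slice with EE2 at 1 µM. The part of this in the result was not tested beyond leaving out each fish in turn. Over all 8 fish 106 transcripts rose and 19 fell with EE2 (limma adjusted p under 0.05). The median rise of the 106 was 1.11, 0.96 and 0.61 log2 units in the large livers of fish 2, 4 and 7, and 1.07, 0.80, 0.60, 1.04 and 0.89 in fish 1, 3, 5, 6 and 8. The classes overlapped throughout, at 0.89 ± 0.26 (SD, n = 3) and 0.88 ± 0.19 (SD, n = 5). The 106 were picked by their rise over these same 8 fish, so the class means describe them and do not test a difference.

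Of the 106 transcripts 50 rose more in large livers, and the median difference in response was -0.03, against 0.01 over all transcripts. Tested directly, 0 of 17930 transcripts differed in their EE2 response at a limma adjusted p under 0.05, and 677 (3.78%) had an unadjusted p under 0.05. With all 47 slices the count was also 0, but 1598 of 17824 (8.97%) had an unadjusted p under 0.05. A smaller difference than the spread allows was not detectable with 3 and 5 fish.

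The response to 1 µM BaP could be compared in 6 fish only, since fish 7 and fish 8 had no other slice with 1 µM BaP than those set aside. Over these 6 fish 16 transcripts rose and 0 fell with BaP 1 µM, alone or in the mixture, against slices without BaP (limma adjusted p under 0.05). Their median rise was 1.74 and 1.55 log2 units in the large livers of fish 2 and 4, and 1.59, 1.41, 1.01 and 1.32 in the small livers of fish 1, 3, 5 and 6. Fish 1 lay above fish 4, so the classes overlapped, at 1.64 ± 0.13 (SD, n = 2) and 1.33 ± 0.24 (SD, n = 4). The rise was larger in large livers at 16 of the 16 transcripts, with a median difference of 0.44 against -0.02 over all transcripts. The 16 were picked from these same 6 fish, and in fish 2 all share 1 slice without BaP. They are therefore not 16 separate observations, and the comparison rests on 2 large livers. Of the 16, 2 had an unadjusted limma p under 0.05, near the share of 13% over all transcripts. With all 47 slices, fish 7 had a median change of 0.17 and fish 8 of -0.34, and the number larger in large livers was 9 of 16.

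**Figure D5:**
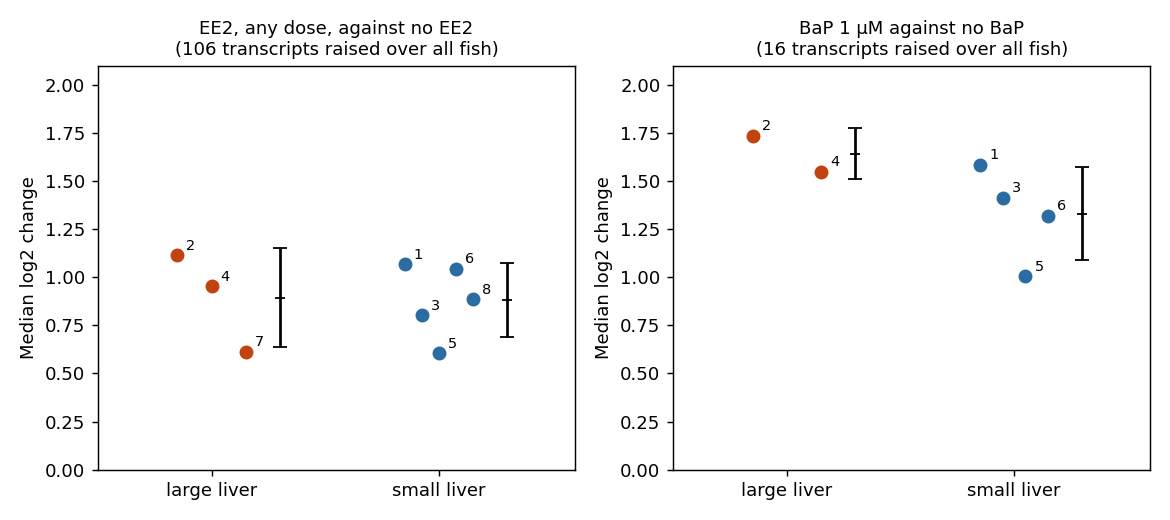
Median log2 change of the transcripts raised over all fish, for EE2 at any dose against no EE2 (left, 106 transcripts, 8 fish) and for BaP 1 µM against no BaP (right, 16 transcripts, 6 fish). Points are numbered fish, and bars are the mean and standard deviation of each liver class. The 2 classes overlap in both panels.

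Tested directly, the change with 1 µM BaP differed between large and small livers at 7 of 17930 transcripts (0.039%; limma with Benjamini-Hochberg adjustment), 6 with a higher and 1 with a lower change in large livers. At an unadjusted p under 0.05 there were 2330 (13%). Of the 7 transcripts, 0 were among the 16, of 17930 tested, that rose over the 6 fish. A change in 2 of the 6 fish would hardly pass that test, so this count does not set the 7 apart from the 16. The first of the 7, of 1695 bases, changed by 2.48 and 2.17 log2 units in fish 2 and 4, and by -0.24, 0.15, -0.66 and 0.01 in fish 1, 3, 5 and 6. The difference in response was 2.50 ± 0.24 log2 units (SE), with a limma adjusted p of 0.0014. This SE rests on the spread between fish and leaves out how far the slices of a fish lay apart. Over all slices used, whatever the treatment, the counts of this transcript ran from 160 to 1958 in fish 2 and 6 to 299 in fish 4. They ran from 148 to 1618, 275 to 1501, 166 to 1345 and 442 to 2318 in fish 1, 3, 5 and 6. The single lower one of the 7 differed by -1.18 ± 0.16 (SE), with a limma adjusted p of 0.0176.

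The rise in fish 2, for these 7 and for the 16 alike, was measured against a single slice without BaP (EE2 10 nM), whose library differed from the 4 others used of that fish. It had 57.8% of segments on no transcript against 46.9% to 48.4%, 9.14% of unmapped mates against 10.6% to 11.6%, 20.6% of counts in the 10 most abundant transcripts against 15.9% to 17.1%, and 43.7 M mapped segments against 49.8 M to 59.8 M. Its part in the result was not tested beyond leaving out fish 2, which has no other such slice. The EE2 in the slices set against each other also differed between fish. In fish 2, BaP 1 µM and Mix 1 µM stood against EE2 10 nM. In fish 1, BaP 1 µM alone stood against DMSO, EE2 10 nM and EE2 1 µM. The part of EE2 in the change with BaP was not tested. In fish 4 the BaP 1 µM slice had the lowest length slope (0.146) and the fewest detected transcripts (17772) of all slices used. The slope was 0.311 in the Mix 1 µM slice of fish 4. In its slices with DMSO, EE2 10 nM and EE2 1 µM it was 0.263, 0.174 and 0.329. The part of this in the result was not tested. Without fish 2 the count was 0 and without fish 4 it was 282, but each of these fits holds 1 large liver, which is assumed to vary like the small ones, so they are no measure of stability. Without fish 1 the count was 13. It was also 0 with all 47 slices, where the first transcript's difference was 1.05 with a limma adjusted p of 1.00, 0 without the filter on low counts and 0 with the replicate block. The transcript of 1884 bases, also among the 7, had nearly the same counts in each fish (3613 and 3552 summed over the slices of fish 1), so the reads of these 2 cannot be told apart and they are uncertain as separate results.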

How the data were processed

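Poly(A) RNA of single liver slices was sequenced as stranded paired reads, per the labels' protocols. FastQC 0.11.5, HISAT2 2.1.0 and SAMtools 1.4.1 were used, per the submitters' processing notes. The build and settings were not given in the sources used here. The deposited tables hold raw counts of mapped read segments for 22100 transcripts, made by the authors and not normalized. The meaning of the columns (mapped segments and unmapped mates) was inferred from their layout and was not stated with them. By this reading both mates are counted. Whether a read that aligns to more than 1 transcript is counted at each was not given, so near-identical transcripts may share reads. The row of segments on no transcript (41.8% to 57.8% of all segments per library) stayed out of library sizes and tests. A name table of 33114 genes matched 0 identifiers, so the lists of lipid, estrogen and cell type genes could not be applied and no sequence is shown.

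Counts were scaled by TMM and turned into log2 CPM (prior count 2) in R 4.3.3 with edgeR 4.0.16, after filtering by treatment (minimum count 10, minimum total 15). Slices were averaged per fish. The means were tested with limma 3.58.1 (moderated test with trend) and Benjamini-Hochberg adjustment at 0.05. DESeq2 1.42.0 and edgeR on counts summed per fish were alternatives. Only the limma test on fish means was checked on simulated data. Library measures were tested by exact permutation. Fish is the replicate, and 1 preparation per fish underlies its slices. Intervals rest on the variation between fish. Transcripts were given by identifier by a rule: called, average log2 CPM of 0 or more and fish groups apart, or, failing calls, the smallest unadjusted p under the same conditions. The fish classes, slices left out, lists and tests were chosen with earlier results of these data known.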

Additional observations from a re-analysis of the deposited data

Results flagged for a closer look

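One result differed between groups by a direct test. The change with 1 µM BaP differed between large and small livers at 7 transcripts (limma, Benjamini-Hochberg adjustment), in 2 against 4 fish, and the change in fish 2 was measured against 1 slice without BaP. The count was 0 without fish 2 and 282 without fish 4, in fits with 1 large liver whose spread came from the small livers alone. Among 15 sets of fish values in the small livers (the library measures, the transcripts given by identifier, the EE2 and BaP responses, the spread between slices and the liver percentage), 0 had a fish far from the others by Dixon's test, which would flag about 1 in 20 by chance.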

How the results depend on the processing

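The comparison of liver classes gave 0 calls with other scaling factors, without the filter on low counts, with all 47 slices, with treatment-adjusted means, in DMSO slices, in slices without EE2, with terms for sex or body weight, with the liver percentage as a number, with the length slope removed, with a prior count of 0.5 and with edgeR. DESeq2 gave 11, slices with the replicate block 5, and leaving out each fish in turn 0 to 4. Fish 7 and 8 left out gave 2 and a term for them 0, both chosen after seeing the data. Males gave 42 with DESeq2. The BaP response gave 0 without the filter, 0 with all 47 slices, 0 with the replicate block and 0 to 282 with a fish left out. Both ends of that range are fits with 1 large liver, assumed to vary like the small ones. The cause was not tested.

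Over 24 alternatives each, the 4 named transcripts, whose direction their choice largely fixed, had log2 differences of 2.22 to 3.49, 2.08 to 3.09, -4.35 to -3.03 and -1.45 to -0.97, and passed the threshold in 1, 1, 2 and 0 of them. Their adjusted p-values ran up to 1.00. Leaving out a fish moved the difference between classes in mapped segments from -3.68 to 1.08 M (the latter without fish 4), in the TMM factor from -0.00740 to 0.132 (the former without fish 7) and in the share of unmapped mates from -0.0118 to 0.236 percentage points (the former without fish 5). The other library differences kept their sign. With 3 fish against 5, a difference of median spread below 0.85 log2 units lies inside its own interval, and a p that misses the threshold does not show that the classes were alike.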
